A study of Mus musculus with 4 samples.

Results

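Transcripts of 49 genes for glycolysis, the fate of pyruvate, the TCA cycle and the NADH shuttles were followed in pancreatic islets of mice that lack gamma-glutamyl carboxylase in the pancreatic lineage. The genes were taken by symbol from a list of pathway enzymes and carriers, out of 55487 genes in the deposited table, and all 49 reached a value of 10 or more in at least 2 of the 4 libraries. The table holds 50 rows under these symbols, since Aldoa names a second, low row. Poly(A)-enriched RNA from freshly isolated islets of C57BL/6 mice, 30 weeks old, was sequenced. Control islets came from Ggcx flox/flox mice without Cre (2 libraries), and knockout islets from Ggcx flox/flox mice that also carry Pdx1-Cre (2 libraries), so every mouse carried the floxed Ggcx allele. Each library pooled islets of 2 mice, and no library carried Cre with an intact Ggcx gene, so the transgene and the loss of Ggcx cannot be told apart. Pdx1-Cre acts in the pancreatic lineage and not in the endothelial, stellate and immune cells of an islet. Control libraries carry the names of their table columns, 2 and 3, because these do not match the numbering of the labels. Pairs of values below are normalized read counts unless another unit is given, with control columns 2 and 3 first and knockout replicates 1 and 2 after them.

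Beta cells use glycolysis and mitochondrial oxidation as a glucose sensor. Pyruvate is passed to mitochondria rather than released as lactate, NADH made in the cytosol is carried inward by the glycerol phosphate and malate-aspartate shuttles, and pyruvate carboxylase refills the TCA cycle. The resulting ATP closes potassium channels and starts insulin secretion.

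The libraries held 47624630 to 51756221 reads assigned to genes. Ggcx stood at 3971 and 3981 normalized read counts in control columns 2 and 3, and at 234.2 and 643.4 in knockout replicates 1 and 2, lower in both libraries labelled knockout than in both controls. All 10 beta cell markers on the list used here were measured, with Ins2 and Ins1 highest, and all 7 alpha cell markers. All 11 measured acinar markers were lower in both knockout libraries than in both controls, with summed normalized counts of 14277 and 16220 in controls and 6975 and 12096 in knockouts (3 of the 14 listed, Amy2a5, Rbpjl and Ptf1a, were below the filter). Summed stellate cell and fibroblast markers (all 9 measured) were 2556 and 1926 in controls and 3715 and 2919 in knockouts, and summed alpha cell markers were 1191819 and 1388518 in controls and 1685960 and 1401626 in knockouts. Among stellate cell markers Dcn (1.29 ± 0.21 on the log2 scale, limma adjusted p = 0.0449) was called higher. Pnlip, the most abundant acinar marker, was at -0.98 ± 0.27 (adjusted p = 0.147). Of the 7 alpha cell markers, 1 was called higher (limma adjusted p = 0.0179) and 6 lay above both controls in both knockout libraries. Of the 4 delta cell markers, 1 was called higher (limma adjusted p = 0.0475) and 4 lay above both controls. Of all genes tested, 0.247% were called higher and 22.0% lay above both controls. In whole islets, fewer cells of a type and less RNA per cell cannot be told apart.

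The enzymes of central glucose metabolism were nearly level between the genotypes. Of the 49 members, 0 were higher and 0 lower at an adjusted p under 0.05 (limma on log2(value + 1), Benjamini-Hochberg over 16589 genes). Of all genes tested, 0.247% were called higher and 0.374% lower, 0.621% in all. That is 41 and 62 genes, and with columns scaled to the same upper quartile it is 57 and 55. At an unadjusted p under 0.05 there were 3 higher members (Pdk4, Eno2, Idh1) and 3 lower ones (Gpd2, Gpd1, Pfkfb2), beside 6.74% of all genes higher and 7.34% lower, 14.1% in all. On the recovered reads, edgeR called 0 members (0.772% of all genes) and DESeq2 called 1, Gpd2, lower (1.63% of all genes lower and 2.58% in either direction). The median log2 fold change, knockout over control, was 0.0046 over the members and 0.00023 over all genes tested, with 28 members above 0 and 21 below.

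The limma intervals bounded most members. They rest on a spread shared across genes, with a median of 6.85 prior degrees of freedom beside 2 from the 4 libraries. For 40 of the 49 genes the 95% interval of the log2 fold change (limma) lay within 0.25 of 0 in either direction, which is a change of at most 1.19-fold. The 9 others were Gpd1, Gpd2, Pdk4, Pdk2, Pfkfb2, Eno2, Idh1, Aldoc and the low Slc16a3. The median size of the log2 difference between genotypes was 0.04, against 0.06 between the control libraries and 0.04 between the knockout libraries. Over all genes tested these medians were 0.10, 0.11 and 0.09. The first is a difference between means of 2 libraries and the others are between single libraries, so they are given as a description. The members were also more abundant, with a median mean value of 2791 against 646 over all genes tested. The median SE of the log2 fold change was 0.05 over the members and 0.09 over all genes tested. Knockout values lay above both control values for 9 members and below both for 9 members, where 22.0% of all genes lay above and 23.0% below, so these counts are near the background.

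The windows before the start sites of Gpd2 and Pdk4 are shown because these were the members called under more than 1 of the alternative analyses. Each is the 250 bases before a RefSeq start on GRCm38.p6, 5′ to 3′ on the strand of the gene. Capitals mark a match, on either strand, to any of 5 motifs: the E-box CACGTG, the FOXO core GTAAACA, the cAMP response element TGACGTCA, the CCAAT box CCAAT and the GC box GGGCGG.
Gpd2, start site 1, chr2:57237428-57237677, plus strand: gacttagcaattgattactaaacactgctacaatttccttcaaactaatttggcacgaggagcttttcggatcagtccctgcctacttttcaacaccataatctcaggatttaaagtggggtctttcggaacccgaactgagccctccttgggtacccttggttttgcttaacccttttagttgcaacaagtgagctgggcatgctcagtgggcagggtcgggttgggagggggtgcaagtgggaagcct
Gpd2, start site 2, chr2:57238132-57238381, plus strand: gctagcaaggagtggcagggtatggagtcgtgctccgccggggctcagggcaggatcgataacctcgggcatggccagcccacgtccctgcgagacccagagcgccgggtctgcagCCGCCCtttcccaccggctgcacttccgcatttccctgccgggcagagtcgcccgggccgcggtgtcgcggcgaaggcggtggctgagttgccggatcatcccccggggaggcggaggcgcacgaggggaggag
Pdk4, start site 1, chr6:5496279-5496528, minus strand: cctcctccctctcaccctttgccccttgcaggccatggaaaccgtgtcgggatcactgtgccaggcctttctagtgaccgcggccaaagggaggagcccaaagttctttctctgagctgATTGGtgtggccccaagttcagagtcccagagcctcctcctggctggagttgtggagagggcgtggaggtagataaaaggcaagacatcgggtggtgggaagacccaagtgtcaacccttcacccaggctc
The windows of the Gpd2 start sites differed in base composition, with 48.8% and 71.2% G and C, and that of Pdk4 held 58.8%. The second Gpd2 window held a GC box and the Pdk4 window a CCAAT box, each on the opposite strand. The first Gpd2 window held none of the 5 motifs. RefSeq windows were matched for 47 of the 49 members (70 windows, Gpd1 and Idh3a unmatched). The GC box was in 39 (55.7%) of the 70 windows and in 32.7% of all 32851 windows. The CCAAT box was in 29 (41.4%) against 33.8%, the E-box in 9 (12.9%) against 6.02%, the cAMP response element in 4 (5.71%) against 1.55% and the FOXO core in 1 (1.43%) against 3.17%. The set of all windows was not matched to the members by level or base composition, and these shares were not tested. Windows of 1 gene can overlap, and the table gives gene totals, so the use of each start site was not measured.

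Levels of different genes were compared per length, as TPM (reads per base of merged exon, scaled to a common total in each library), while changes between genotypes are given on the normalized counts. Together the 49 genes took 0.423% ± 0.0019 of all assigned reads in controls and 0.420% ± 0.0043 in knockouts (mean ± SD of 2 libraries each). The glycolytic enzymes Aldoa and Pkm and the cytosolic malate dehydrogenase Mdh1 stood well above the rest, at 309 ± 3.57, 288 ± 3.87 and 272 ± 0.58 TPM in controls (SD, n = 2). Ogdh and Gapdh followed at 109 ± 1.04 and 106 ± 2.32 TPM, close to each other on the scale of their spread. The lactate exporter Slc16a3 stood lowest, at 0.406 ± 0.02 TPM in controls and 0.296 ± 0.02 TPM in knockouts (SD of 2 libraries each). Low lactate export is a known trait of beta cells. Gapdh and other glycolytic genes have processed pseudogenes, and the labels and notes do not state how reads that match several places were handled, so their levels are uncertain.

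**Figure D1:**
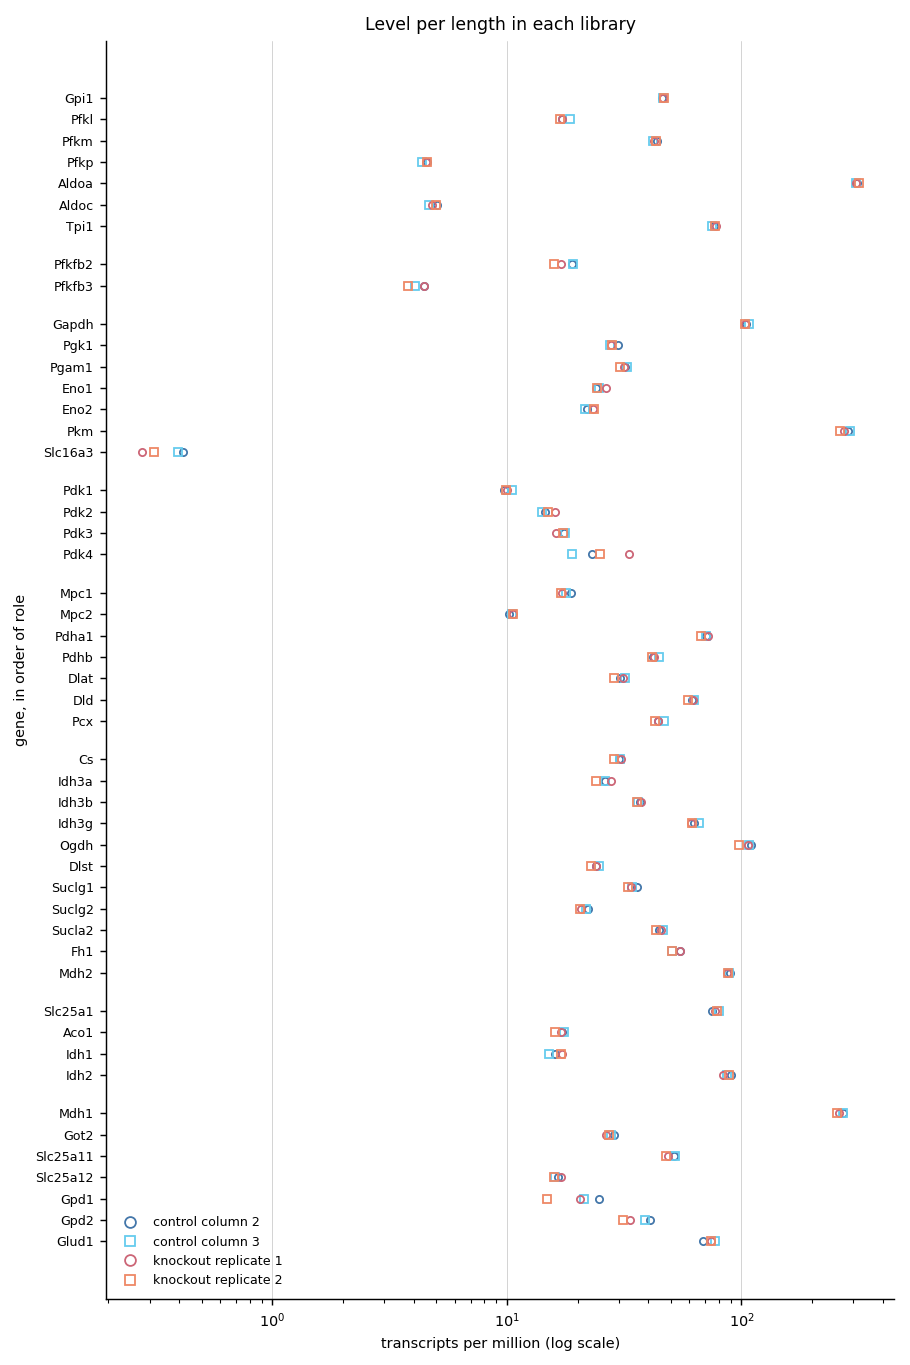
TPM (horizontal, log scale) of each of the 49 genes, listed by role, in the 4 libraries. Libraries nearly coincide for most genes, Aldoa, Pkm and Mdh1 are the highest, Slc16a3 is the lowest, and Pdk4, Gpd1 and Gpd2 spread the most visibly among the abundant genes.

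In upper glycolysis, which splits glucose phosphate into triose phosphates, 6 of 7 log2 fold changes were above 0 and none passed the test (median 0.05, range -0.03 to 0.07). Of all genes tested, 50.1% were above 0. Aldoa, which cleaves fructose bisphosphate, stood at 18828 and 18246 in controls and 18804 and 19619 in knockouts. Its groups overlapped, and its log2 fold change was 0.05 ± 0.05 (SE). Tpi1, which interconverts the triose phosphates, stood at 4354 and 4213 in controls and 4506 and 4516 in knockouts. Both knockout values of Tpi1 lay above both controls, with a difference of 0.07 ± 0.05 on the log2 scale (limma adjusted p = 0.553). Gpi1, the isomerase ahead of the committed step, had a log2 fold change of 0.05 ± 0.05.

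Phosphofructokinase 1 catalyses the committed step of glycolysis, from 3 kinds of subunit. Per length, Pfkm, the muscle type, was the main one in each library, with 64.6% to 66.9% of PFK-1 subunit transcripts. Pfkl, the liver type, made up 26.0% to 28.7%, and Pfkp, the platelet type, 6.70% to 7.08%. The ranges of controls and knockouts overlapped for Pfkm and Pfkl, while both knockout shares of Pfkp (7.04% and 7.08%) lay above both control shares (6.998% and 6.70%). Over the 4 libraries the mean share of Pfkm was 66.1%, and with coding length in place of merged exon length it was 44.1%. Aldoa held 98.4% to 98.5% of aldolase transcripts, with Aldoc as the rest. The log2 fold changes were 0.05 ± 0.05 for Pfkm, -0.03 ± 0.06 for Pfkl, 0.07 ± 0.07 for Pfkp and 0.06 ± 0.10 for Aldoc. Exons of Pfkp overlap those of the more abundant Pitrm1 on the opposite strand over 748 bases, and whether reads were counted by strand is not stated in the labels or notes.

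The bifunctional PFK-2 enzymes set the level of fructose 2,6-bisphosphate, which activates phosphofructokinase 1. Pfkfb2 (ENSMUSG00000026409; GRCm38 chromosome 1, 130689182 to 130729253, minus strand) stood at 2843 and 2829 in controls and 2592 and 2465 in knockouts. Both knockout values lay below both controls. The log2 fold change was -0.17 ± 0.05 with a limma adjusted p of 0.1995 (unadjusted 0.0127). Exons of Pfkfb2 overlap those of Yod1 on the opposite strand over 154 bases. Pfkfb3, the more inducible form, stood at 694 and 629 in controls and 704 and 614 in knockouts, so its groups overlapped. Pfkfb2 made up 79.3% to 82.4% of the transcripts of this pair.

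In lower glycolysis, which makes ATP and pyruvate, 0 of 7 genes passed the test, Slc16a3 included, and the median log2 fold change was 0.00057. Pkm, the pyruvate kinase of most tissues other than liver, stood at 29593 and 29708 in controls and 28679.7 and 28147 in knockouts. Both knockout values were lower, with a difference of -0.06 ± 0.05 on the log2 scale (limma adjusted p = 0.626). The log2 fold changes of Gapdh, Pgk1 and Pgam1 were 0.01 ± 0.05, 0.00057 ± 0.07 and -0.01 ± 0.06.

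Both enolases lay higher in both knockout libraries than in both controls. Eno2 (ENSMUSG00000004267; GRCm38 chromosome 6, 124760053 to 124769673, minus strand), the enolase of neurons and endocrine cells, stood at 2138 and 2073 in controls and 2300.1 and 2364 in knockouts. Its log2 fold change was 0.15 ± 0.05 with a limma adjusted p of 0.266 (unadjusted 0.0238). Eno1, the widespread form, stood at 2666 and 2725 in controls and 2979.7 and 2793 in knockouts, with a difference of 0.10 ± 0.06 on the log2 scale (limma adjusted p = 0.487). Per length, Eno1 made up 50.8% to 53.5% of enolase transcripts, near equal levels by merged exon length. Slc16a3 stood at 46.0 and 42.9 in controls and 31.2 and 35.5 in knockouts, a log2 fold change of -0.40 ± 0.24 with a limma adjusted p of 0.505. At these low counts its 95% interval ran from -0.94 to 0.13.

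**Figure D2:**
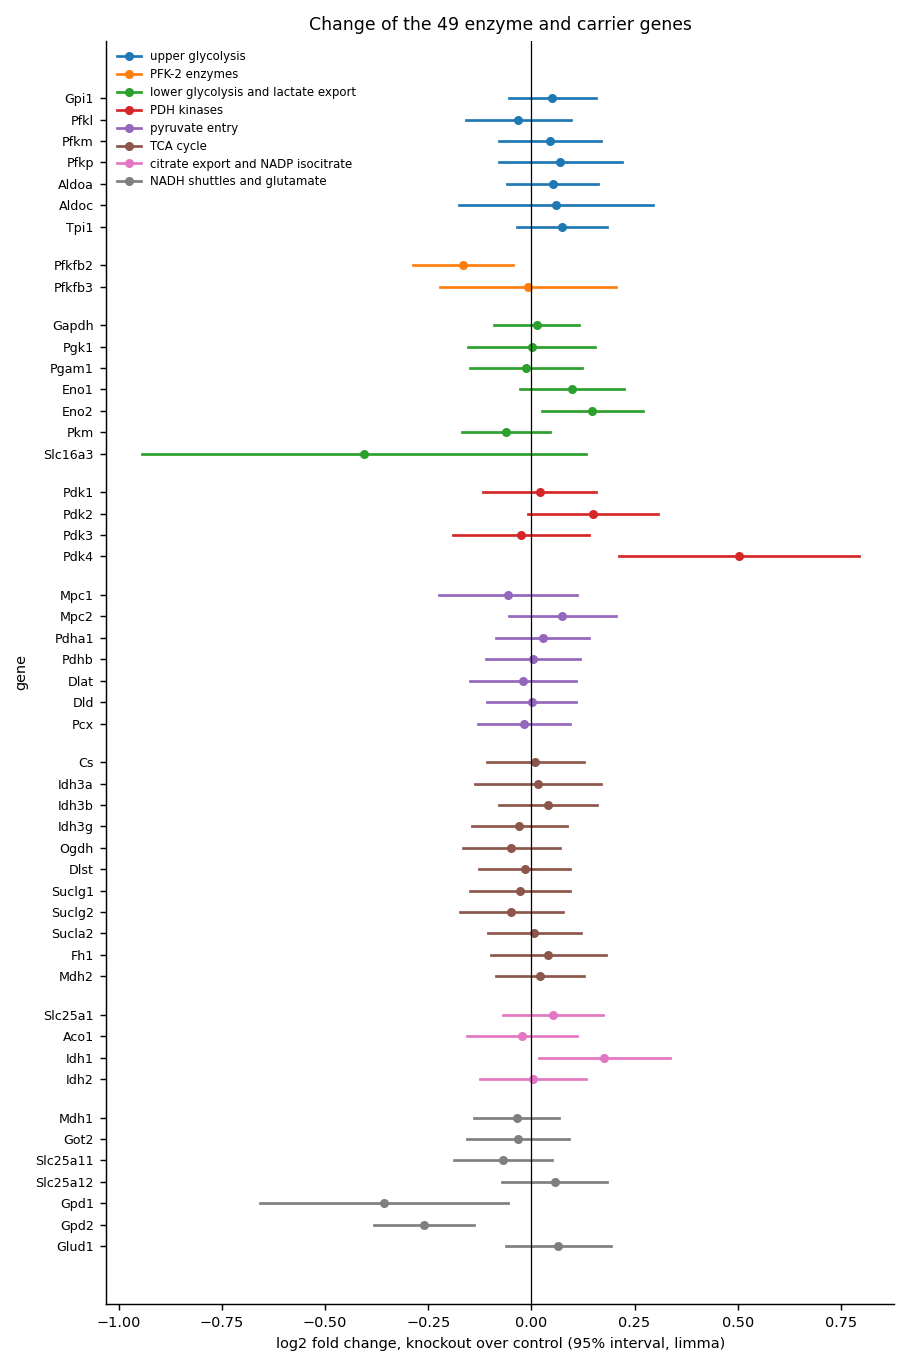
Log2 fold change, knockout over control (points), with its 95% interval from limma (lines) for the 49 genes, coloured by role. For 43 genes the interval covers 0. The other 6 are Gpd2, Gpd1 and Pfkfb2 on the lower side and Pdk4, Eno2 and Idh1 on the higher side, none with an adjusted p under 0.05.

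Pyruvate dehydrogenase kinases phosphorylate the pyruvate dehydrogenase complex and thereby hold back pyruvate oxidation. Pdk4 is the kinase known to be induced by fasting, fatty acids and glucocorticoids. Pdk4 (ENSMUSG00000019577; GRCm38 chromosome 6, 5483351 to 5496309, minus strand) stood at 1677 and 1362 in controls and 2447 and 1874 in knockouts. Both knockout values lay above both controls, and libraries of 1 genotype also stood apart from each other. The log2 fold change was 0.50 ± 0.13, or 1.42-fold, the highest of the 49 members, with a 95% interval from 0.21 to 0.79. Its limma adjusted p was 0.116 (unadjusted 0.00363). It was called higher without control column 2 (log2 fold change 0.65, limma adjusted p = 0.0344, beside 1.25% of all genes) and without knockout replicate 2 (0.69, adjusted p = 0.00177, beside 0.609%). It was 0.35 without control column 3 and 0.31 without knockout replicate 1 (limma adjusted p of 0.259 and 0.234).

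The library with the most Pdk4, knockout replicate 1, also had the lowest sum of acinar markers and the highest sums of alpha cell and of stellate cell markers given above. The part of these cell types in the Pdk4 value was not tested. Pdk2, the widespread kinase, stood at 957 and 912 in controls and 1066 and 1007 in knockouts, with both knockout values higher, a difference of 0.15 ± 0.07 on the log2 scale (limma adjusted p = 0.386). The log2 fold changes of Pdk1, a known target of hypoxia-inducible factor, and Pdk3 were 0.02 ± 0.06 and -0.03 ± 0.07.

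Per length, Pdk4 was the most abundant of the 4 kinases in each library when merged exon length was used. Its share of PDH kinase transcripts was 35.5% and 31.0% in controls and 43.9% and 37.2% in knockouts. Pdk3 held 21.5% to 28.8%, Pdk2 21.2% to 23.0% and Pdk1 13.3% to 17.2%. Per transcript of Pdha1, the catalytic subunit that these kinases act on, Pdk4 stood at 0.327 and 0.269 in controls and 0.458 and 0.370 in knockouts. An exact permutation test of 2 against 2 libraries cannot go below p = 0.333 (two-sided), so shares and ratios are given with no test.

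The genes for pyruvate entry into mitochondria were level. Of these 7, 0 passed the test, and their log2 fold changes lay between -0.06 and 0.07 (median 0.00060). Pdha1 stood at 5454 and 5392 in controls and 5677 and 5379 in knockouts, with overlapping groups and a log2 fold change of 0.03 ± 0.05. Exons of Pdha1 overlap those of the more abundant Map3k15 on the opposite strand over 603 bases. The log2 fold changes of Dlat, Dld and Pdhb, other subunits of the complex, were -0.02 ± 0.06, 0.00060 ± 0.05 and 0.0046 ± 0.05.

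Mpc1 and Mpc2 form the mitochondrial pyruvate carrier and differed in sign. Mpc2 stood at 1550.0 and 1584 in controls and 1635 and 1666 in knockouts, a log2 fold change of 0.07 ± 0.06. Mpc1 stood at 808 and 757 in controls and 750.4 and 754 in knockouts, a log2 fold change of -0.06 ± 0.07. Neither passed the test (limma adjusted p of 0.625 and 0.794). Pcx, pyruvate carboxylase, was at 45.4 ± 1.74 TPM in controls and 43.5 ± 0.95 TPM in knockouts (mean ± SD of 2 libraries each), and its log2 fold change was -0.02 ± 0.05. Per Pdha1 transcript, Pcx stood at 0.627 and 0.660 in controls and 0.611 and 0.635 in knockouts, so the ratio of the carboxylating to the oxidizing enzyme overlapped between genotypes.

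The TCA cycle had a narrow range of log2 fold changes, from -0.05 to 0.04 (median 0.0070). None of its 11 genes passed the test or had an unadjusted p under 0.05. Ogdh, a subunit of oxoglutarate dehydrogenase, was both the most abundant of them and the farthest from 0. It stood at 12394 and 12044 in controls and 12239 and 11391 in knockouts, with overlapping groups and a log2 fold change of -0.05 ± 0.05. Citrate synthase Cs was at 0.0095 ± 0.05, fumarase Fh1 at 0.04 ± 0.06 and mitochondrial malate dehydrogenase Mdh2 at 0.02 ± 0.05 on the same scale.

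The subunits of NAD-dependent isocitrate dehydrogenase had log2 fold changes of 0.02 ± 0.07 for Idh3a, 0.04 ± 0.05 for Idh3b and -0.03 ± 0.05 for Idh3g. Dlst, the second subunit of the oxoglutarate complex, was at -0.02 ± 0.05. Succinyl-CoA ligase pairs the shared subunit Suclg1 (-0.03 ± 0.05) with Sucla2, the ATP-forming type (0.0070 ± 0.05), or Suclg2, the GTP-forming type (-0.05 ± 0.05). Sucla2 made up 66.7% to 68.6% of the beta subunit transcripts per length, in ranges that overlapped between genotypes.

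Citrate and isocitrate that leave mitochondria feed lipid synthesis and NADPH, which amplifies insulin secretion. The log2 fold changes of the citrate carrier Slc25a1 and the cytosolic aconitase Aco1 were 0.05 ± 0.05 and -0.02 ± 0.06. Idh1 (ENSMUSG00000025950; GRCm38 chromosome 1, 65158616 to 65186500, minus strand), the cytosolic NADP-dependent isocitrate dehydrogenase, stood at 922 and 857 in controls and 1004 and 1006 in knockouts. Both knockout values lay above both controls, with a difference of 0.18 ± 0.07 on the log2 scale (limma adjusted p = 0.304) (unadjusted 0.0328). Its mitochondrial counterpart Idh2 stood at 4842 and 4590.4 in controls and 4548 and 4912 in knockouts, with overlapping groups and a log2 fold change of 0.0037 ± 0.06. Per length, Idh1 made up 15.1% and 14.9% of the transcripts of this pair in controls and 17.1% and 16.1% in knockouts, and Idh2 the rest.

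Both members that act in the glycerol phosphate shuttle were lower in both knockout libraries than in both controls. Of all genes tested, 23.0% lay below both controls. Gpd1l, a Gpd1-like gene outside the members, was higher in both knockout libraries. It stood at 1677 and 1732 in controls and 1880 and 1767 in knockouts. Its log2 fold change was 0.10 ± 0.06 (limma adjusted p = 0.532). Gpd1 makes glycerol 3-phosphate in the cytosol with NADH, and Gpd2, in the inner mitochondrial membrane, passes its electrons to the respiratory chain. Gpd2 is known as an enzyme that islets hold at a high level. Gpd2 (ENSMUSG00000026827; GRCm38 chromosome 2, 57237635 to 57370719, plus strand) stood at 5536 and 5209 in controls and 4596 and 4377 in knockouts. The means were 5372 ± 231 and 4487 ± 155 (SD, n = 2 each). The genotypes differed by a log2 fold change of -0.26 ± 0.05, or 0.835-fold, with a 95% interval from -0.38 to -0.14. Its limma adjusted p of 0.0702 was the lowest of the members and missed the threshold. In the authors' deposited table, Gpd2 was the 1 member of 48 with an adjusted p under 0.05, at 0.0197, beside 2.35% of all genes. The authors' deposited table gives control over knockout, and its log2 fold change for Gpd2 was 0.26.

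The size of the Gpd2 difference held across the analyses while its adjusted p crossed the threshold. DESeq2 on the recovered reads gave an adjusted p of 0.0222, limma with robust empirical Bayes 0.0490 (beside 0.747% of all genes called lower) and edgeR 0.0717. Over all alternatives its adjusted p ran from 0.0222 to 0.415, and its log2 fold change from -0.30 to -0.22. Exons of Gpd2 overlap those of A930012O16Rik on the opposite strand over 487 bases. The mean of A930012O16Rik was 106 normalized counts. The sums of acinar, stellate cell, alpha cell, delta cell and PP cell markers also differed between the genotypes. Summed PP cell markers were 150919 and 105625 in controls and 151248 and 174244 in knockouts. The part of these cell types in the Gpd2 value was not tested.

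Gpd1 (ENSMUSG00000023019; GRCm38 chromosome 15, 99717515 to 99725005, plus strand) stood at 1522 and 1296 in controls and 1276 and 941 in knockouts. Control column 3 and knockout replicate 1 nearly met. The log2 fold change was -0.36 ± 0.13 with a limma adjusted p of 0.270 (unadjusted 0.0248). It was called lower without knockout replicate 1 (-0.58, limma adjusted p = 0.00905, beside 0.591% of all genes) and stood at -0.14 without knockout replicate 2 (adjusted p = 0.788). It was -0.24 without control column 2 and -0.47 without control column 3. Gpd1 is also abundant in fat. Of 6 listed fat cell markers, Adipoq, Plin1, Lep and Retn were at 0 in all 4 libraries and Cidec was below the filter. The 1 that passed the filter, Fabp4, which endothelial cells and macrophages also express, stood at 279 and 181 in controls and 338 and 417 in knockouts. Both knockout values of Fabp4 lay above both controls, at 0.74 ± 0.19 on the log2 scale (limma adjusted p = 0.122), and the part of fat cells in the Gpd1 value was not tested.

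**Figure D3:**
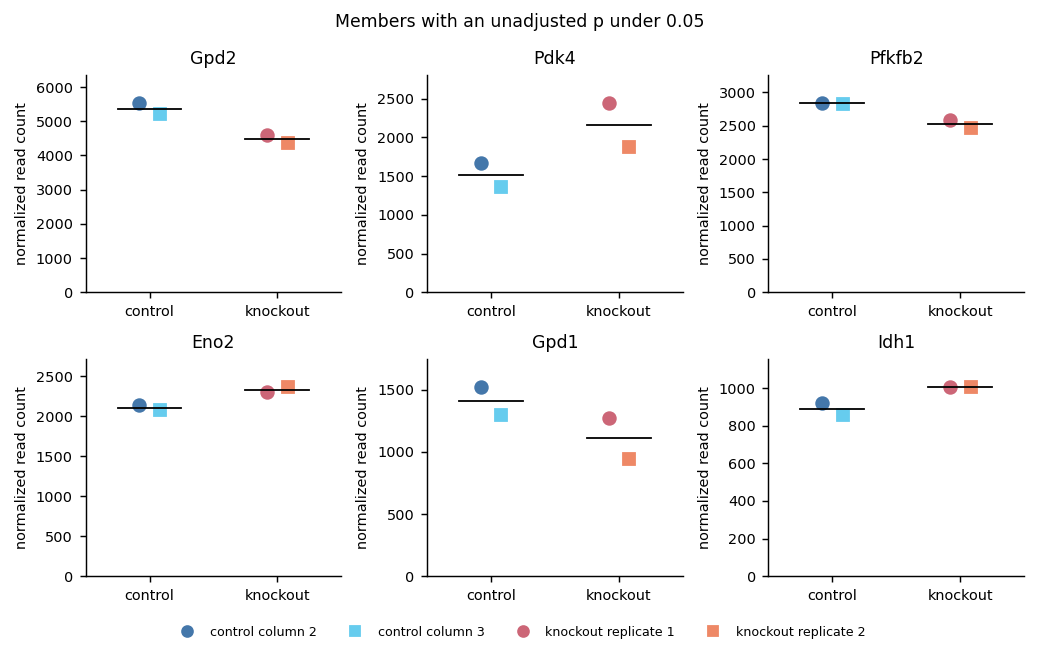
Normalized read counts (vertical, from 0) of the 6 members with an unadjusted p under 0.05, in control and knockout libraries, with black bars at the group means. In each panel the groups do not overlap, and for Gpd1 control column 3 at 1296 and knockout replicate 1 at 1276 nearly touch.

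**Figure D4:**
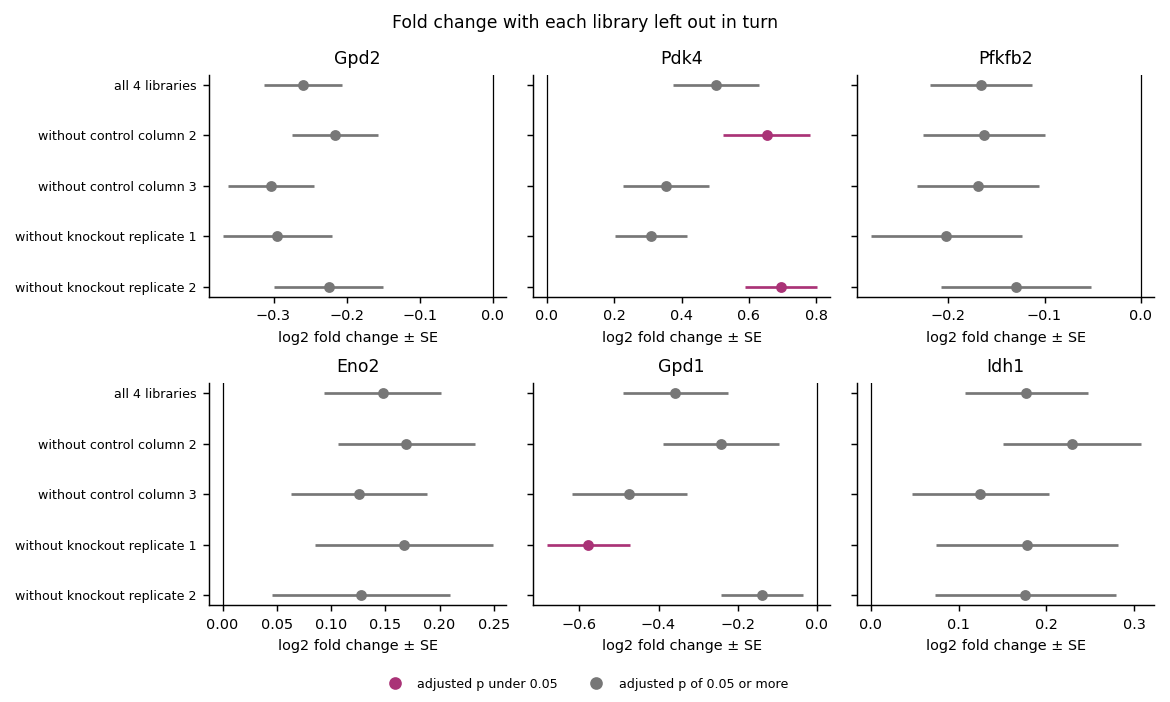
Log2 fold change with its SE (limma) for the same 6 genes with all 4 libraries and with each library left out in turn, with adjusted p under 0.05 in purple. Pdk4 moves between 0.31 and 0.69 and Gpd1 between -0.58 and -0.14, while Gpd2 stays between -0.30 and -0.22.

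The malate-aspartate shuttle is the other route for cytosolic NADH. Mdh1 stood at 14486 and 14225 in controls and 14041 and 13959 in knockouts, with both knockouts lower and a log2 fold change of -0.04 ± 0.05. The log2 fold changes were -0.07 ± 0.05 for the oxoglutarate carrier Slc25a11, 0.06 ± 0.06 for the aspartate-glutamate carrier Slc25a12 and -0.03 ± 0.05 for the mitochondrial transaminase Got2. None of these 4 passed the test, with limma adjusted p from 0.626 to 0.851. Exons of Slc25a11 overlap those of the more abundant Rnf167 on the opposite strand over 189 bases. Glud1, glutamate dehydrogenase, was at 0.07 ± 0.06.

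Per length, Gpd2 transcripts per Slc25a12 transcript stood at 2.47 and 2.42 in controls and 1.96 and 1.97 in knockouts. Per Slc25a11 transcript they stood at 0.788 and 0.745 in controls and 0.686 and 0.656 in knockouts. Both ratios were lower in both knockout libraries than in both controls. Gpd1 per Mdh1 transcript stood at 0.0911 and 0.0790 in controls and 0.0788 and 0.0584 in knockouts. Gpd2 made up 62.0% to 67.8% of the transcripts of Gpd1 and Gpd2 together, with ranges that overlapped between genotypes.

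**Figure D5:**
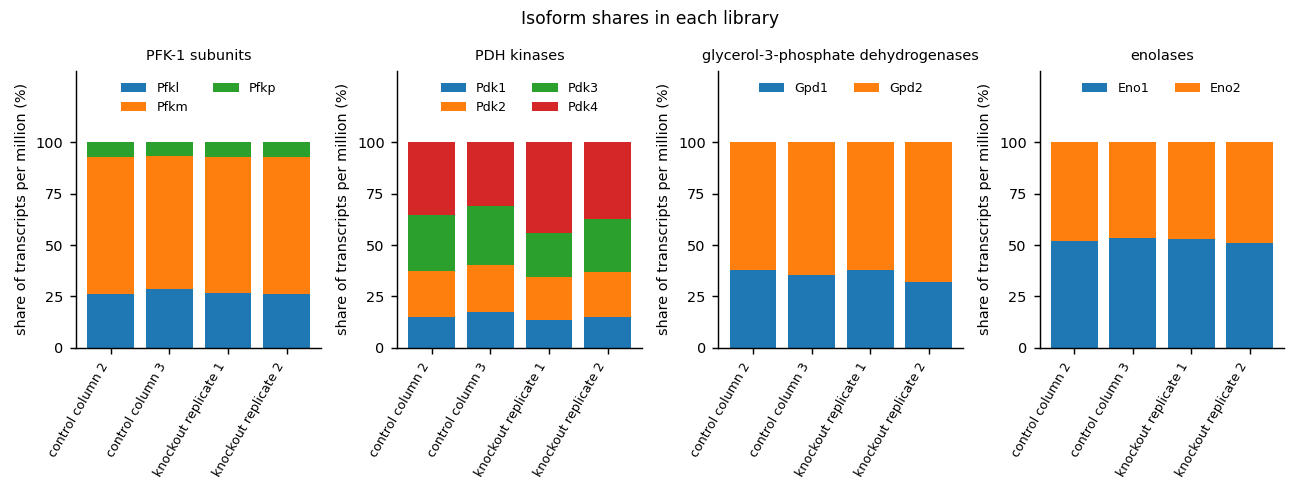
Share of each isoform in the summed TPM of its family (vertical, percent), stacked for each of the 4 libraries and drawn by family. Pfkm is the main PFK-1 subunit throughout, and the Pdk4 share is 31.0% to 35.5% in controls and 37.2% to 43.9% in knockouts.

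Other genes of these pathways, listed apart from the members, were also without a call. Of 44 such neighbours, among them glucose transporters, hexokinases and succinate dehydrogenase subunits, 40 passed the filter, and 0 were higher and 0 lower at a limma adjusted p under 0.05. At an unadjusted p under 0.05 there were 2 higher (Fbp1 and Me1) and 3 lower (Slc2a2, Tigar and Pdpr), named after their values were seen. Of all genes tested, 6.74% were higher and 7.34% lower at that threshold. The glucose transporter Slc2a2 stood at 31910 and 32334 in controls and 27942 and 29092 in knockouts. Its log2 fold change was -0.17 ± 0.05 (limma adjusted p = 0.155). Among the neighbours edgeR and DESeq2 called 0. The median log2 fold change of the 40 neighbours was 0.05, with 27 above 0 and 13 below. The most abundant was G6pc2, the islet glucose-6-phosphatase that opposes glucokinase, which stood at 172945 and 178304 in controls and 191369 and 175671 in knockouts. Its groups overlapped, and its log2 fold change was 0.06 ± 0.07.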

How the data were processed

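Islet RNA was sequenced in 4 libraries, 2 control and 2 knockout. The tools named per the submitters' processing notes are STAR 2.5.1b, CASAVA 1.4, DESeq2 1.22.2 and featureCounts 1.6.0, with the build GRCm38. The deposited values are a signal, read counts that the authors divided by a size factor for each library. Dividing by the step between low values gave whole reads, within 0.01 read, for 100.0% of values. The authors' deposited table also holds log2 fold changes, a test statistic (score) and p-values. Gene positions come from GENCODE M21, which holds 99.5% of the identifiers.

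Genes with a value of 10 or more in at least 2 libraries (16589 of 55487) entered limma 3.58.1 (R 4.3.3), with a mean trend, on log2(value + 1), and p-values were adjusted by Benjamini-Hochberg over all of them. Fold changes of low genes are understated on this scale. As alternatives, edgeR 4.0.16 (quasi-likelihood) and DESeq2 1.42.0 were run on the recovered reads. Of all genes, limma called 103, edgeR 128 and DESeq2 328. On data simulated for this comparison (55487 genes) limma recovered 87.6% of 1.5-fold and 97.2% of 2-fold changes.

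The members and gene lists were chosen with earlier results of these data known, and the CCAAT and GC boxes were added after the sequences were seen. Values in each library are given for members with an adjusted or unadjusted p under 0.05 and, in each role, for the member with the highest level per length and the one with the largest absolute log2 fold change, with others chosen after their values were seen. Outside the members, genes with an adjusted p under 0.05 are named for the pathway neighbour, pentose phosphate, hypoxia, acinar, stellate cell and fat cell lists. Where a list had none, the gene with the highest normalized read counts is named. Gpd1l and Taldo1 were named after their values were seen.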

Additional observations from a re-analysis of the deposited data

How the results depend on the processing

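No paired analysis was possible because the columns of the control libraries do not carry the replicate numbers of the labels. Beside the analysis reported, 14 others were run on each fold change: pseudocounts of 0.5 and 5, no filter, a filter at 50, columns scaled to the same total or the same upper quartile, no trend, robust empirical Bayes, each library left out, edgeR and DESeq2. Of the 49 members, 25 kept their sign in all of them (Slc16a3 was not tested with the filter at 50), and 24 did not, all with a log2 fold change within 0.07 of 0. The count of members called lower was 1 (Gpd2) with robust empirical Bayes and 1 with DESeq2. With a library left out, the count of members called higher ran from 0 to 1 (Pdk4) and the count lower from 0 to 1 (Gpd1). In the pentose phosphate list, 1 gene (Rpia) was called lower with robust empirical Bayes and with DESeq2, and 0 to 1 with a library left out. Among targets of hypoxia-inducible factor, 1 (P4ha2) was called higher by DESeq2, and 0 to 1 with a library left out (Ddit4 without control column 2, P4ha2 without knockout replicate 2). With a shared upper quartile, which moved the median of all genes by 0.019, the median log2 fold change was 0.023 over all members and 0.019 in lower glycolysis, and the sign turned for Pfkfb3 0.011, Pgam1 0.0051, Dlst 0.0022. With a shared total it turned for Pgk1 -0.0072, Pdhb -0.0031, Dld -0.0071, Sucla2 -0.00074, Idh2 -0.0040. With a library left out, median log2 fold changes ran from -0.010 to 0.021 in lower glycolysis, -0.032 to 0.012 in the TCA cycle and 0.019 to 0.068 in citrate export and NADP isocitrate dehydrogenases. Members whose sign turned with a library left out had these ranges: Pfkl -0.077 to 0.014, Aldoc -0.0061 to 0.12, Pfkfb3 -0.11 to 0.090, Gapdh -0.0012 to 0.027, Pgk1 -0.066 to 0.067, Pgam1 -0.030 to 0.0029, Pdk1 -0.030 to 0.069, Pdk3 -0.087 to 0.036, Pdha1 -0.012 to 0.066, Pdhb -0.023 to 0.032, Dlat -0.074 to 0.033, Dld -0.020 to 0.021, Pcx -0.047 to 0.0094, Cs -0.032 to 0.051, Idh3a -0.077 to 0.11, Ogdh -0.10 to 0.0024, Dlst -0.044 to 0.011, Suclg1 -0.072 to 0.015, Sucla2 -0.014 to 0.028, Fh1 -0.022 to 0.10, Aco1 -0.057 to 0.011, Idh2 -0.052 to 0.059, Got2 -0.065 to 0.0010, Glud1 -0.0041 to 0.14. The mean shares over the 4 libraries were 56.6% for Pfkm, 30.4% for Pdk4, 99.0% for Aldoa, 63.4% for Eno1, 73.3% for Sucla2, 86.5% for Idh2 with the longest transcript as length, and 44.1% for Pfkm, 98.0% for Aldoa, 54.5% for Eno1, 63.0% for Sucla2, 80.9% for Idh2 with coding length. Over all genes, limma called 103, and 2 with no filter, 51 with the filter at 50, 0 with no trend, 209 with robust empirical Bayes and 107 to 448 with a library left out. DESeq2 called 328. With 2 libraries a group, single differences under the intervals given cannot be resolved, and a lone library left in a group is assumed to vary like the others. The cause of these shifts was not tested.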

Other observations

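Outside the 49 genes, the pentose phosphate pathway branches from glycolysis and makes NADPH and ribose phosphate. Of its 8 genes, 0 were called (limma adjusted p). At an unadjusted p under 0.05, where 7.34% of all genes were lower and 6.74% higher, 1 of the 8 was lower and 0 higher. Tkt, transketolase, had the highest normalized read counts of them, 3654 and 3726 in controls and 3592 and 3957 in knockouts. Its log2 fold change was 0.03 ± 0.06. Per length Taldo1 stood highest, at 73.0 TPM in controls and 72.9 TPM in knockouts, against 24.4 and 24.2 TPM for Tkt. Rpia, which isomerizes ribose phosphate and is named here after its values were seen, stood at 1078 and 1291 in controls and 866 and 898 in knockouts. Both knockout values of Rpia lay below both controls, with a difference of -0.42 ± 0.09 on the log2 scale (limma adjusted p = 0.0793). DESeq2 gave Rpia an adjusted p of 0.0175.

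Of 14 listed targets of hypoxia-inducible factor that are not among the 49 genes, 13 passed the filter and Car9 did not. By limma 0 were called. At an unadjusted p under 0.05, where 6.74% of all genes were higher and 7.34% lower, 3 of the 13 were higher and 0 lower. These 3 were P4ha2, Egln3 and Ddit4, named after their values were seen. The median log2 fold change of the list was 0.01. Vegfa had the highest normalized read counts of the list, 18681 and 20588 in controls and 18697 and 20096 in knockouts. Its log2 fold change was -0.02 ± 0.06. P4ha2, a collagen prolyl hydroxylase, stood at 1212 and 1345 in controls and 1839 and 1549.5 in knockouts, a log2 fold change of 0.40 ± 0.09 with a limma adjusted p of 0.0857. Ddit4, a stress-induced inhibitor of mTORC1, stood at 3258 and 2395 in controls and 3480.4 and 3389 in knockouts. Its log2 fold change was 0.30 ± 0.12 with a limma adjusted p of 0.300. Egln3 had the largest log2 fold change of the list, 0.81 ± 0.24, with a limma adjusted p of 0.160. Its counts were low, 32.7 and 45.8 in controls and 70.8 and 66.2 in knockouts. The summed stellate cell and fibroblast markers were also higher in both knockout libraries, with 7 of the 9 markers above both controls and 1, Dcn, past the limma threshold, and their part in the P4ha2 value was not tested.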
